A study of Mus musculus with 10 samples.

Results

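Serine palmitoyltransferase, its ORMDL regulators and the reductase that follows it were read in primary mouse keratinocytes, the epithelial cells of the epidermis in culture, from animals labelled Sgpp1-/- (KO) and Sgpp1+/+ (WT). The 7 genes are Sptlc1, Sptlc2, Sptlc3, Kdsr, Ormdl1, Ormdl2 and Ormdl3, and the members were all probe sets annotated to 1 of these genes and to no other gene. There were 13 such probe sets among the 45037 on the array that are not Affymetrix controls: 4 for Sptlc1, 3 for Sptlc2, 2 for Sptlc3, 3 for Kdsr and 1 for Ormdl1. They cover 5 of the 7 genes, since the probe sets for Ormdl2 and Ormdl3 are each annotated to a pseudogene as well. The study set 5 KO arrays, numbered 8, 9, 10, 21 and 23, against 5 WT arrays, numbered 1 to 5, all from total RNA of cells grown for 3 to 4 days with 0.05 mM calcium and 8% fetal calf serum. Sgpp1 encodes sphingosine-1-phosphate phosphatase 1, and the labels give neither the strain and age of the mice nor the part of the gene that was disrupted. Nothing in them says that each sample is a mouse or culture of its own, so the p-values measure the spread between these samples, which may be technical. All values are log2 signals of Affymetrix mouse expression arrays as deposited. Each probe set combines several short probes chosen for the same transcript, and in some sets the probes can match further transcripts.

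Serine palmitoyltransferase, SPT, sits in the membrane of the endoplasmic reticulum and joins serine to palmitoyl-CoA, the committed and rate-limiting step of sphingolipid synthesis. Sptlc1 pairs with one of the catalytic subunits, Sptlc2 or Sptlc3, small subunits raise the activity, and ORMDL proteins bind the complex and hold it back when ceramide is plentiful. The product is reduced by the enzyme that Kdsr encodes, and ceramide synthases and a desaturase then make ceramide. In the epidermis this pathway supplies the ceramides of the cornified layer that keep water in.

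The Sgpp1 signal did not bear out the labelled genotype. The 3 probe sets of Sgpp1 read higher in KO by mean, not lower. The brightest gave 8.46, 9.01, 8.69, 8.92 and 9.03 in KO and 6.25, 7.82, 8.24, 8.34 and 7.70 in WT. No WT array reached the lowest KO array on any of the 3 (brightest: difference 1.15, SE 0.33, limma adjusted p = 0.156). A probe set outside the disrupted part checks nothing, and KO and WT stand here for the arrays labelled so. Keratinocyte markers were bright, with Krt5 at 12.73 ± 0.10 in KO and 12.78 ± 0.06 in WT (mean ± SD, n = 5 each), and 0 of the 9 measured keratinocyte markers passed the test. Array WT 1 stood apart, its correlation with the rest across all probe sets averaging 0.955, against 0.967 to 0.977 for each of the others. Y-linked transcripts were present on 2 of 5 KO arrays and 2 of 5 WT arrays. On the 6 arrays without them, the 9 Y-linked probe sets read 1.58 to 3.84, which served as the range of signal without a transcript. The top of this range was the reading of Kdm5d on WT 1.

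Across the 13 probe sets, 1 passed the test, a probe set of Sptlc3 that was higher in KO, and 0 passed lower (limma, Benjamini-Hochberg over 45037 probe sets, threshold 0.05). That is 7.69% of the members, beside 1.13% of all probe sets called higher and 0.142% called lower. By mean, 12 of the 13 were higher in KO, with a median difference of 0.35, beside a median of -0.02 and 46.9% positive over all probe sets. On 2 of the 13 the lowest KO array lay above the highest WT array, as for 2.28% of all probe sets. The probe sets of a gene read the same RNA, so these counts are not counts of independent measurements. In such bulk cultures a larger share of cells that express a gene cannot be told apart from more transcript per cell.

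**Figure D1:**
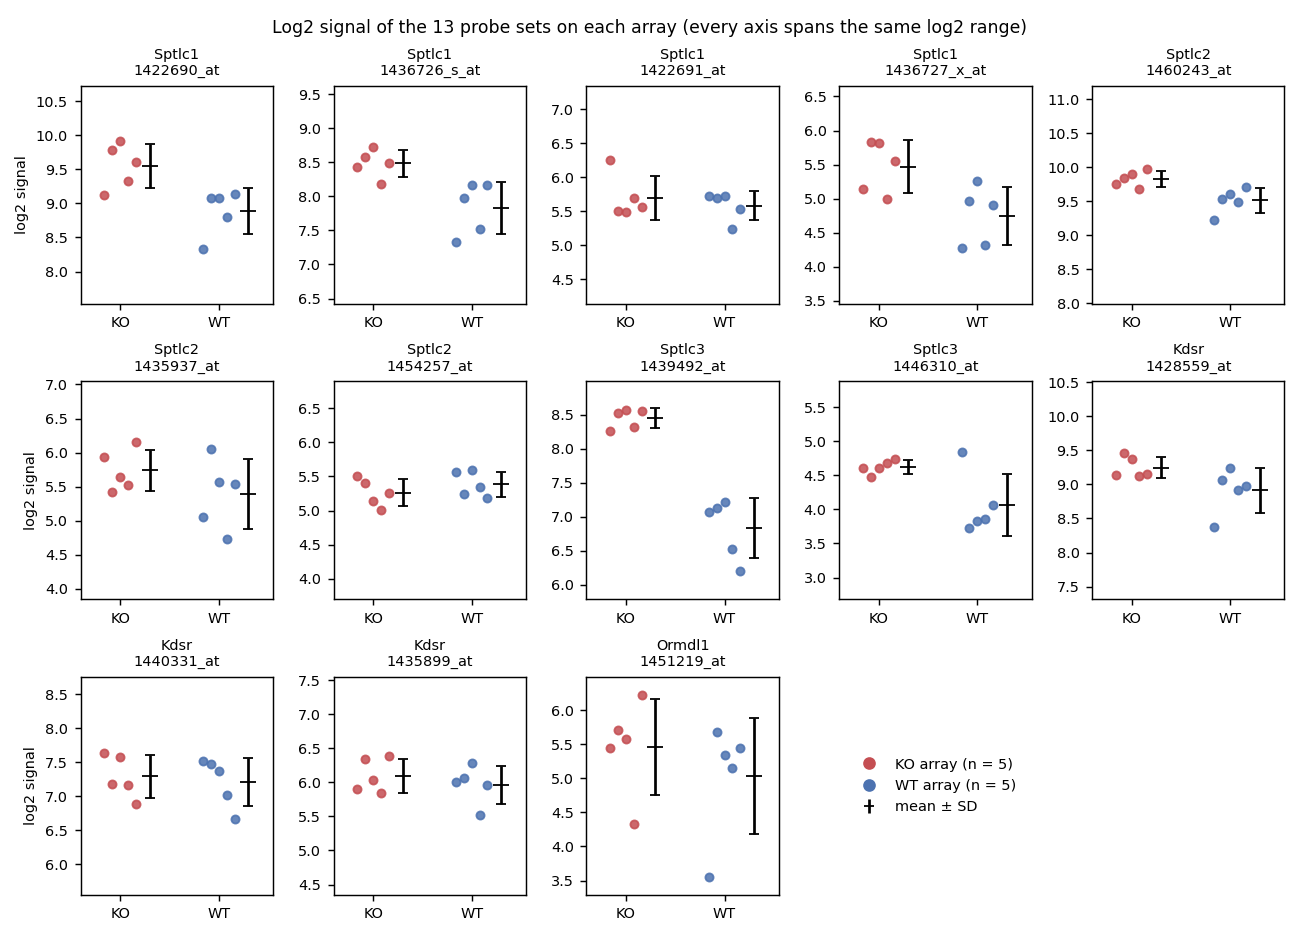
Log2 signal of each of the 13 probe sets (y axis) on the KO arrays and the WT arrays (x axis), with mean ± SD beside the points and axes that span the same log2 range. The 5 KO arrays of Sptlc3 probe set 1439492_at lie between 8.27 and 8.57, all above the WT arrays at 6.21 to 7.22.

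Sptlc3, the alternative catalytic subunit, carried the one difference that passed. Its brighter probe set, 1439492_at, read 8.27, 8.53, 8.57, 8.32 and 8.55 on KO 8, 9, 10, 21 and 23, against 7.07, 7.12, 7.22, 6.53 and 6.21 on WT 1 to 5. The KO arrays were tightly grouped and did not overlap the WT arrays, among which WT 4 and WT 5 were lowest. The difference was 1.62 on the log2 scale (SE 0.20), 3.07-fold higher in KO with a 95% interval of 2.28 to 4.13, and the limma adjusted p was 0.0014. The SD was 0.14 in KO and 0.44 in WT. A further number in the labels runs from 6 to 10 over the KO arrays and from 1 to 5 over the WT arrays. This array number and genotype therefore cannot be told apart. With array number as a covariate the difference was 2.08 (SE 0.39, limma adjusted p = 0.508) and 0 of all probe sets passed.

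The other Sptlc3 probe set, 1446310_at, was dim. It read 4.60, 4.47, 4.61, 4.69 and 4.74 in KO and 4.84, 3.72, 3.83, 3.86 and 4.07 in WT. All KO arrays lay above 4 of the WT arrays, and WT 1 lay above them all. KO exceeded WT by 0.56 (SE 0.20, limma adjusted p = 0.292), which did not pass. Without WT 1 it was 0.75 and passed, with a limma adjusted p of 0.0122, so that 2 of the 13 probe sets were then called. Over all 45037 probe sets, leaving out 1 array at a time called 290 to 509 higher and 11 to 93 lower. WT 2 and WT 3 were within the range read without a transcript, though close to its top, which was a reading on WT 1. If they are background, a log2 difference of this probe set may understate the change.

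The promoters of both catalytic subunit genes are shown because one gene passed the test and the other did not. The sequences are the 250 bases before the annotated start, 5′ to 3′ on the strand of the gene, from RefSeq on GRCm38.p6, and capitals mark CG dinucleotides. Sptlc3 lies on the plus strand at chr2:139493663-139493912 and Sptlc2 on the minus strand at chr12:87388356-87388605.
Sptlc3: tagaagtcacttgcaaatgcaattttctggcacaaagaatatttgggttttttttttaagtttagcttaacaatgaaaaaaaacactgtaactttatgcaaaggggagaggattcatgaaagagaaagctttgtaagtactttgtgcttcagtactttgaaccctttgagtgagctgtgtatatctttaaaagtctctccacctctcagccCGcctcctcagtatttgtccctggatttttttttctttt
Sptlc2: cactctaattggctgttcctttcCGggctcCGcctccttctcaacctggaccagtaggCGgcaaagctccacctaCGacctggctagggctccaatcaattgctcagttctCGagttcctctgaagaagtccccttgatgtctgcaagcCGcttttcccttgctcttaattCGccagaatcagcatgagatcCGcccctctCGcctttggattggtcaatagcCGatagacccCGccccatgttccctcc
The Sptlc3 sequence holds 1 CG and is 35.6% G and C, and the Sptlc2 sequence holds 11 and is 55.2% G and C. Over 32817 RefSeq promoters the median was 6 CG, and 18.8% held as few as Sptlc3. The other 5 genes held between 17 (Ormdl2) and 25 (Ormdl1). A GC box (GGGCGG on either strand) was found in 6 of the 7 promoters, all but that of Sptlc3, against 32.7% of all promoters. A CCAAT box (CCAAT on either strand) was found in 4 of the 7, among them Sptlc2, against 33.8%, and neither a TATA box (TATAAA) nor an AP-1 site (TGANTCA) in any of the 7, against 12.4% and 6.75%. An ETS site (CCGGAA) was found in Sptlc1 and Sptlc2, against 12.0%. Each motif was searched on both strands and none of them contains another. These are letter matches, not sites of binding.

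**Figure D2:**
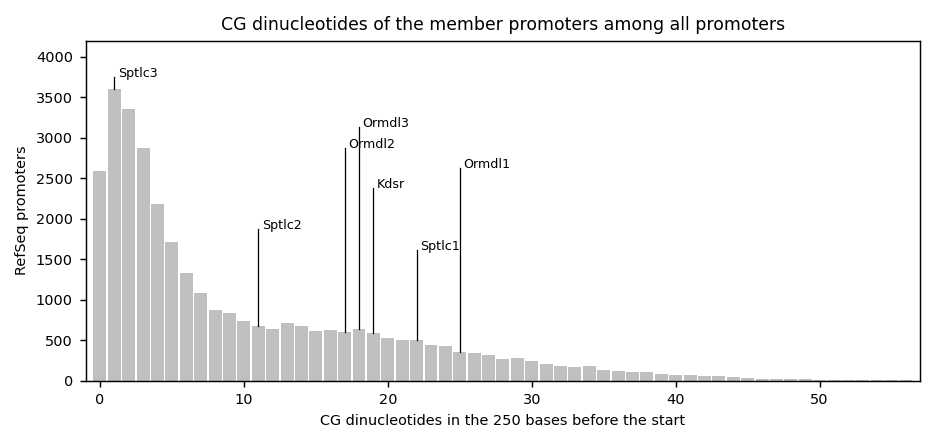
Number of RefSeq promoters (y axis) by the count of CG dinucleotides in the 250 bases before the start (x axis), with the 7 member genes marked. Sptlc3, with 1, lies at the low end, and the other 6 lie between 11 and 25.

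Sptlc1 encodes the subunit shared by all forms of the enzyme. Its brightest probe set, 1422690_at, read 9.12, 9.78, 9.92, 9.34 and 9.61 on KO 8, 9, 10, 21 and 23, against 8.33, 9.08, 9.08, 8.80 and 9.14 on WT 1 to 5. The groups overlapped only through KO 8, which lay just below WT 5. The difference was 0.67 (SE 0.20), or 1.59-fold with a 95% interval of 1.18 to 2.15, and it did not pass (limma adjusted p = 0.180). Probe set 1436726_s_at read 8.44, 8.58, 8.72, 8.19 and 8.49 in KO and 7.33, 7.97, 8.17, 7.52 and 8.17 in WT. Here the groups did not overlap, if barely for KO 21, and the difference was 0.65 (SE 0.19, limma adjusted p = 0.163). The dimmer 1436727_x_at differed by 0.72 (SE 0.23, limma adjusted p = 0.230), while the dim 1422691_at differed by 0.11 (SE 0.17, limma adjusted p = 0.936). The suffixes s and x mark sets with probes that can match further transcripts. Thus 3 of the 4 Sptlc1 probe sets differed by 0.65 to 0.72 with intervals above 0 before adjustment, and none passed over all probe sets. With arrays weighted by how well they fit, 1422690_at and 1436726_s_at passed at 0.73 and 0.68 (limma adjusted p = 0.0207 and 0.0381), and 4 of the 13 members were then called. The same weights took the calls over all 45037 probe sets from 508 to 1242 higher and from 64 to 654 lower. With array number as a covariate, 1422690_at differed by 0.006 (SE 0.36), 1436726_s_at by 0.06 (SE 0.34) and 1436727_x_at by 0.08 (SE 0.44). Their limma adjusted p were 0.999, 0.988 and 0.987, and the SEs were larger than without the covariate.

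Sptlc2, the widely expressed catalytic subunit, did not pass on any of its 3 probe sets. Its brightest probe set, 1460243_at, read 9.76, 9.84, 9.91, 9.68 and 9.97 in KO, against 9.22, 9.53, 9.61, 9.49 and 9.71 in WT. The groups overlapped only where KO 21 lay below WT 5. The difference was 0.32 (SE 0.13), 1.25-fold with a 95% interval of 1.02 to 1.52, and a limma adjusted p of 0.415. With array number as a covariate the difference was 0.004 (SE 0.26, limma adjusted p = 0.999). The other probe sets overlapped between the groups, 1435937_at with a difference of 0.35 (limma adjusted p = 0.751) and 1454257_at with one of -0.12 (limma adjusted p = 0.906).

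Kdsr encodes 3-ketodihydrosphingosine reductase, which acts on the product of SPT. Its brightest probe set, 1428559_at, read 9.13, 9.46, 9.37, 9.12 and 9.15 in KO and 8.37, 9.07, 9.24, 8.92 and 8.98 in WT. WT 3 lay within the KO range and WT 1 well below the other WT arrays. The difference was 0.33 (SE 0.17, 95% interval -0.04 to 0.70, limma adjusted p = 0.578), and without WT 1 it was 0.19 (limma adjusted p = 0.637). With array number as a covariate it was -0.14 (SE 0.32). Probe sets 1440331_at and 1435899_at differed by 0.08 and 0.13 and their groups overlapped (limma adjusted p = 0.969 and 0.919).

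Ormdl1 encodes one of the proteins that restrain SPT. Its probe set, 1451219_at, read 5.45, 5.71, 5.58, 4.32 and 6.23 in KO, against 3.55, 5.68, 5.34, 5.16 and 5.45 in WT. The groups overlapped, and 1 array in each stood below the rest, KO 21 and WT 1, and WT 1 was within the range read without a transcript. The difference was 0.43 (SE 0.41, limma adjusted p = 0.863), and its 95% interval of -0.46 to 1.31 leaves room for a change in either direction. Without WT 1 the difference was 0.05, and with array number as a covariate -0.89 (SE 0.75).

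Ormdl2 and Ormdl3, which encode the other 2 ORMDL proteins, could be read only on probe sets shared with pseudogenes. The set annotated to Ormdl2 and Gm5553 read 7.68 to 8.26 with a median of 8.21 in KO and 7.66 to 8.26 with a median of 7.87 in WT (difference 0.14, SE 0.17, limma adjusted p = 0.908). The set annotated to Ormdl3 and Gm12538 read 6.21 to 7.15 with a median of 6.46 in KO and 5.85 to 6.65 with a median of 6.37 in WT (difference 0.27, SE 0.21, limma adjusted p = 0.788). Both overlapped between the groups, and the part of each signal that comes from the ORMDL transcript is unknown.

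**Figure D3:**
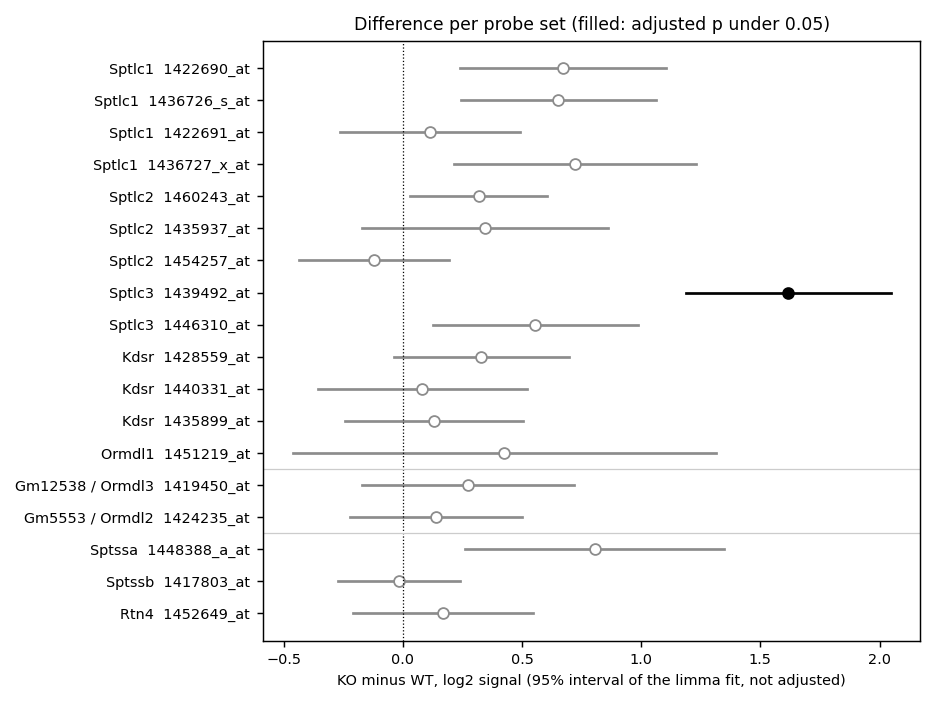
KO minus WT difference in log2 signal (x axis) with its unadjusted 95% interval for the 13 probe sets, the 2 shared ORMDL probe sets and the brightest probe set of each of 3 SPT partners (y axis). The 1 filled point, Sptlc3 1439492_at at 1.62, passed the adjusted threshold.

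Whether the genes changed by unequal amounts was tested for all 10 pairs of the 5 genes, on the log2 difference of their brightest probe sets per array (two-sided exact permutation over all ways to label 5 of the 10 arrays KO, Benjamini-Hochberg over the 10 pairs). Sptlc3 differed by 1.30 more than Sptlc2 and by 1.29 more than Kdsr, and in both the KO arrays lay above the WT arrays (exact p = 0.00794, the smallest possible, adjusted p = 0.0397). Against Sptlc1 the excess was 0.95 (exact p = 0.0159, adjusted p = 0.0529) and against Ormdl1 1.19 (exact p = 0.0635, adjusted p = 0.106), and neither passed. Among the 6 pairs without Sptlc3 the differences ran from -0.11 to 0.35, with exact adjusted p of 0.0595 to 0.897. Leaving out KO 9, 10, 21 or 23 took the Sptlc2 and Kdsr pairs to exact adjusted p of 0.0529 to 0.0794 with excesses of 1.24 to 1.32, still without overlap of the groups. Without WT 1 the excess was 1.14 over Sptlc1 and 1.62 over Ormdl1, and both passed (exact adjusted p = 0.0198). Without KO 8 the excess of Sptlc3 over Sptlc1 was 0.89 (exact adjusted p = 0.0476), and Sptlc1 exceeded Sptlc2 by 0.44 and Kdsr by 0.42 (exact adjusted p = 0.0397 each), which all passed. With the mean of all probe sets of a gene in place of the brightest, the excess of Sptlc3 was smaller. It was then 0.91 over Sptlc2 and over Kdsr, 0.55 over Sptlc1 and 0.66 over Ormdl1. Over all 13 alternative settings the exact adjusted p of the Sptlc3 pairs began at 0.0198. It reached 0.0794 against Sptlc2 and Kdsr, 0.111 against Sptlc1 and 0.489 against Ormdl1.

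Not all the members varied together from array to array. After each group's mean was taken off, Sptlc1 and Sptlc2 followed each other over the 10 arrays (Pearson r = 0.832), as did Sptlc1 and Kdsr (r = 0.842) and Sptlc2 and Ormdl1 (r = 0.880). Sptlc3 did not follow them, with r of -0.212 to 0.094 to the other 4 genes. WT 1 was the lowest WT array for Sptlc1, Sptlc2, Kdsr and Ormdl1 but not for Sptlc3. Without it, over 9 arrays, r was 0.679 for Sptlc1 and Sptlc2, 0.271 for Sptlc2 and Kdsr, and 0.636 for Sptlc3 and Kdsr. These are descriptions over arrays that share their processing, with no test.

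**Figure D4:**
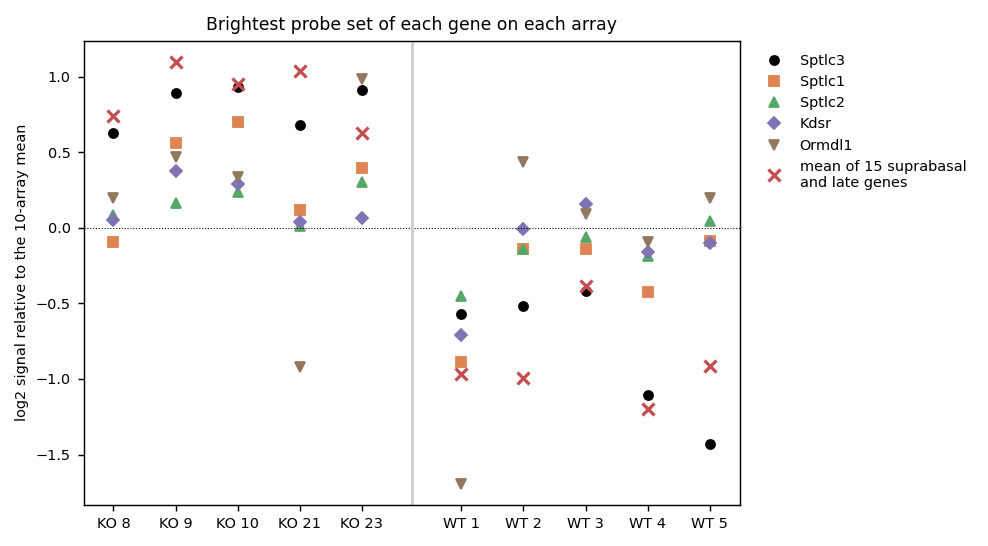
Log2 signal of the brightest probe set of each of the 5 genes, relative to its 10-array mean (y axis), on each array (x axis), with the mean of 15 suprabasal and late differentiation genes as crosses. Sptlc3 and the crosses lie above 0 on all KO arrays and below 0 on all WT arrays, and Ormdl1 is low on KO 21 and WT 1.

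Genes of the suprabasal and late differentiation programme of the epidermis were higher on the KO arrays, as was Sptlc3. Of 15 such genes, a list that was picked with results on these samples known, 14 were called higher in KO and 0 lower, beside 1.82% and 0.165% of all genes read on 1 probe set each, and their median difference was 1.71, beside -0.01. Their mean, relative to the 10-array mean, lay between 0.63 and 1.098 in KO and between -1.20 and -0.39 in WT. WT 3 had the highest value of the WT arrays both in this mean and in Sptlc3, while WT 5 was lowest in Sptlc3 and WT 4 in the mean. Among the KO arrays the 2 ranked differently. KO 9 was highest and KO 23 lowest in the mean, and KO 10 was highest and KO 8 lowest in Sptlc3. The part of this programme in the Sptlc3 difference was not tested. Of 6 melanocyte markers 0 were called, with a median difference of 0.72 and a summed linear signal of 2356 to 7914 in KO and 738 to 8051 in WT, and the highest by mean, Tyrp1, overlapped between the groups. The lists for fibroblasts, myeloid and Langerhans cells, T cells, endothelium, adipocytes and sebocytes also had 0 calls, and their summed signals overlapped. The 7 fibroblast markers stood far higher on WT 3 and WT 4, with a mean relative to the 10-array mean of 2.11 and 1.73, against -0.98 to 0.80 on the KO arrays and -1.23 to -0.70 on the other WT arrays. Their summed linear signal was 807 to 4704 in KO and 711 to 13720 in WT, and their part in the member differences was not tested. The highest by mean in these 6 lists were Col1a1, Cd68, Cd2, Pecam1, Lpl and Krt79. Of their 29 measured markers 12, Adipoq, Cd3e and Ptprc among them, stayed on all 10 arrays within the range read without a transcript. Others read above it, with Lpl at a mean of 8.26 in KO and 8.27 in WT, and Cd68 at 7.11 and 6.82. Relative to the 10-array mean, the myeloid and Langerhans markers were highest on WT 5 (0.59) and KO 23 (0.47). The part of these cells in the member differences was not tested.

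The partners of SPT were read beside it. Sptssa, a small subunit that raises SPT activity, read 10.26, 10.46, 10.22, 10.12 and 10.62 in KO, against 8.51, 10.03, 9.86, 9.64 and 9.61 in WT. The KO arrays lay above the WT arrays, as in 3.36% of all genes, and the difference of 0.80 (SE 0.25, limma adjusted p = 0.204) did not pass. With array weights the difference was 0.64 and passed (limma adjusted p = 0.0397), and with array number as a covariate it was 0.34 (SE 0.51, limma adjusted p = 0.962). Sptssb, the other small subunit, read at most 2.64 on any array, within the range read without a transcript, and gives no comparison. Rtn4, whose Nogo-B product is known to restrain SPT, differed by 0.17 on its brightest probe set (limma adjusted p = 0.884), by 0.03 without WT 1, and 0 of its 5 probe sets passed.

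Downstream of Kdsr, 1 of 7 genes for ceramide synthases and dihydroceramide desaturases was called higher and 0 lower, beside 1.82% and 0.165% of all genes, and the median difference was 0.26. The 1 was Degs2, which encodes the enzyme that makes phytoceramides. It read 7.48, 8.24, 9.41, 8.17 and 7.82 in KO and 5.14, 4.34, 5.24, 5.22 and 7.07 in WT, a difference of 2.82 (SE 0.46, limma adjusted p = 0.0083). WT 5 was far above the other WT arrays and still below each KO array. Without WT 1, WT 2 and KO 8 together the call was lost (2.57, limma adjusted p = 0.065), and of the suprabasal and late genes 8 were then called. With array number as a covariate the Degs2 difference was 0.91 (SE 0.73, limma adjusted p = 0.959).

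The supply of both substrates was read next. Of 12 genes for serine synthesis and transport 0 were called higher and 1 lower, beside 1.82% and 0.165% of all genes, with a median difference of -0.02. The 1 was Shmt2, the mitochondrial enzyme that interconverts serine and glycine, which fell by 0.66 (SE 0.14) to 9.51 ± 0.20 in KO, against 10.17 ± 0.15 in WT (SD, n = 5 each, limma adjusted p = 0.0410). Its 3 other probe sets differed by -0.52, -0.48 and -0.26 and did not pass, and the call was lost when KO 9, 10, 21 or 23 or WT 2, 3, 4 or 5 was left out, at limma adjusted p of up to 0.143. Of 16 genes for the synthesis, activation and uptake of palmitate 1 was called higher and 0 lower, beside the same shares of all genes (1.82% and 0.165%), with a median difference of 0.09. The 1 was Slc27a4, a fatty acid transporter and acyl-CoA synthetase of the epidermis, which read 7.48 ± 0.33 in KO and 6.58 ± 0.22 in WT (difference 0.90, SE 0.18, limma adjusted p = 0.0292). It lost its call without KO 8, 9, 10 or 23 or WT 1, 3, 4 or 5, at limma adjusted p of up to 0.106. With array number as a covariate the Slc27a4 difference was 0.32 (SE 0.32, limma adjusted p = 0.959). Fabp5, a fatty acid binding protein of keratinocytes, passed on 1 of its 2 probe sets (difference 0.73, limma adjusted p = 0.0440) and not on the brighter (0.45, 0.250).

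**Figure D5:**
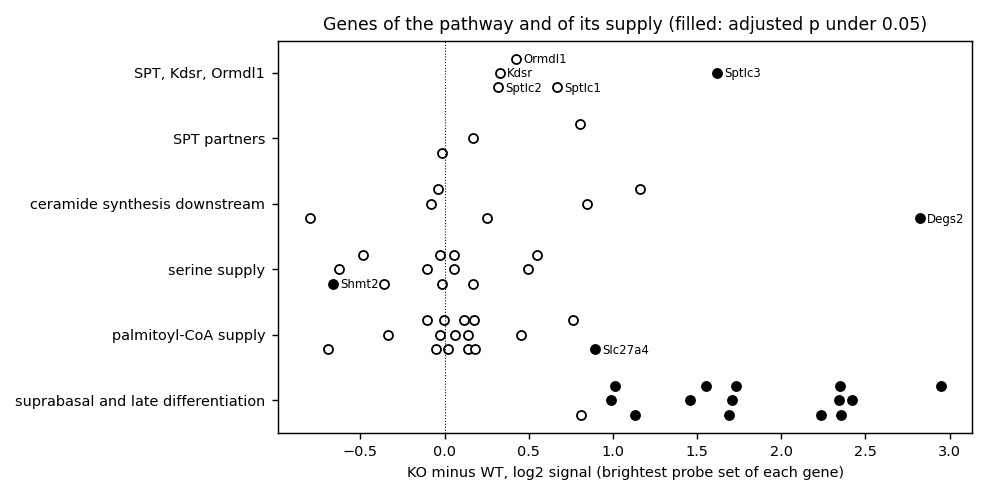
KO minus WT difference in log2 signal of the brightest probe set (x axis) for each gene, by list (y axis), with filled points for genes past the adjusted threshold. Sptlc3, Degs2, Slc27a4 and 14 of 15 suprabasal and late genes are filled to the right of 0, and Shmt2 to the left.

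The genes whose array to array pattern was most like that of each member were listed by Pearson r over the 10 arrays after each group's mean was taken off, among 10102 genes brighter than the median. For Sptlc3 these were Ostf1 (r = 0.929), the ubiquitin ligase gene Mgrn1 (0.916) and the defensin gene Defb1 (0.913), none of which was called between KO and WT. For Kdsr the first was Ugcg, the glucosylceramide synthase gene (r = 0.975, and 0.926 without WT 1), which was itself 1.65 higher in KO (limma adjusted p = 0.0016), followed by Epas1 (0.959), also higher by 1.37 (limma adjusted p = 0.0024), and Tpt1 (0.958). For Sptlc1 they were Sec16a, which organises exit sites of the endoplasmic reticulum (r = 0.988), Zfand2a (0.964) and Ankrd13a (0.959). For Sptlc2 they were Creg1 (0.984), Nab2 (0.978) and Ctu1 (0.973), and for Ormdl1 Ywhaq and Cep20 (0.985 each) and Mfsd5 (0.980). Likeness over so few arrays, picked from so many genes, is a description only.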

How the data were processed

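The deposited log2 signals are the authors' own; the submitters' processing notes name RMA. This method, robust multi-array averaging, corrects background, equalises arrays and combines the probes of a set, and compresses differences near background. Its version and settings are not given in the sources used here. The lowest signal was 1.13 and the highest 14.92, and each array's median lay between 5.03 and 5.17. All 10 columns were used as deposited.

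Of 45101 probe sets 64 controls were left out, 34945 carry 1 gene, 932 several and 9160 none in the platform annotation used here. KO minus WT was fitted over all 45037 probe sets with limma 3.58.1 in R 4.3.3 (lmFit, eBayes, two-sided), adjusted by Benjamini-Hochberg at 0.05. SE is the moderated standard error, and intervals are 95% and unadjusted. For lists, the probe set with the highest mean stood for each of 18193 genes. The number of arrays limits the precision. Pairs were tested for the 5 genes with probe sets of their own, not for all 7 as planned. Members, lists, tests and alternatives were chosen with earlier results of these data known. The named genes were all members, all called list members, the SPT partners, the brightest marker of each other cell type, and the 3 genes most like each member, without placeholder symbols. Members of these lists without a probe set of their own (Cers1, Acsl1, Dsg3, Trac, Lck, Plin1, Awat2, Soat1, Ddx3y) were not analysed here.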

Additional observations from a re-analysis of the deposited data

Results flagged for a closer look

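In 4 of 42 groups of 5 arrays, 1 array stood apart from the rest by more than 0.71 of the group's whole range, and chance alone flags about 1 in 20 groups. Ormdl1 read 3.55 on WT 1, with the next WT array at 5.16. Sptssa read 8.51 on WT 1, with the next at 9.61. The dim Sptlc1 probe set 1422691_at read 6.25 on KO 8, above the next KO array at 5.70, and Rtn4 read 11.46 on KO 8, below the next at 11.80. WT 1 is the array with the lowest mean correlation with the others. Without it the difference of Ormdl1 was 0.05 and that of Sptssa 0.55 (limma adjusted p = 0.973 and 0.131), and that of Rtn4 was 0.03 (limma adjusted p = 0.964). Without KO 8 the difference of the dim Sptlc1 probe set was -0.02 and that of Rtn4 0.24 (limma adjusted p = 0.983 and 0.737).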

How the results depend on the processing

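The brighter Sptlc3 probe set was higher in KO under all 20 alternatives (1.46 to 2.08) and lost its call in 1 of them, array number as a covariate (2.075, limma adjusted p = 0.508). That covariate left 0 calls among the members, among all probe sets in either direction and in the ceramide, serine, palmitoyl-CoA and suprabasal lists. It took Sptlc1 1422690_at to 0.006025 (SE 0.3555), Sptlc2 1460243_at to 0.004354 (SE 0.2584), Degs2 to 0.9103 (SE 0.7252) and Slc27a4 to 0.3171 (SE 0.3233). It turned the sign of Kdsr (-0.1407), Ormdl1 (-0.8912), the probe set shared by Ormdl2 (-0.1581), Sptssb (0.1618) and Rtn4 (-0.1165).

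Array weights called Sptlc1 (0.7288), 4 members, 1242 probe sets higher and 654 lower, 1 SPT partner, 3 ceramide genes, and 1 palmitoyl-CoA gene lower. Centring on array medians and a covariate for Y-linked signal each left 0 serine genes lower. Without WT 1, WT 2 and KO 8, 28 probe sets were lower, 0 ceramide, 0 serine and 0 palmitoyl-CoA genes and 8 suprabasal genes were called, and Sptssb was 0.00415. The pairs were then 1.179 (Sptlc3 over Sptlc1), 1.689 (Sptlc3 over Ormdl1), 0.4144 (Sptlc1 over Sptlc2) and 0.4329 (Sptlc1 over Kdsr), all called, and 0.0185 (Sptlc2 over Kdsr), 0.09541 (Sptlc2 over Ormdl1) and 0.07692 (Kdsr over Ormdl1), turned in sign. Without KO 21 and KO 23, 322 probe sets were higher and 36 lower, 0 serine genes were lower and 9 suprabasal genes higher. With the mean of all probe sets of a gene, Sptlc1 over Sptlc2 was 0.3591 and passed, and Sptlc2 over Kdsr was 0.0003907, turned in sign. Sptlc3 then exceeded Sptlc1 by 0.5472, Sptlc2 by 0.9063, Kdsr by 0.9067 and Ormdl1 by 0.6617, the lowest of the 13 alternatives.

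Leaving out 1 array at a time, all probe sets called higher ranged from 290 to 509, all called lower from 11 to 93, members from 1 to 2, suprabasal genes from 10 to 14, serine genes lower from 0 to 1, palmitoyl-CoA genes higher from 0 to 1 and lower from 0 to 1. The dim probe set of Sptlc1 ranged from -0.02453 to 0.1666, Kdsr 1440331_at from -0.05365 to 0.181, Kdsr 1428559_at from 0.1923 (without WT 1) to 0.4102, Rtn4 from 0.03191 (without WT 1) to 0.2544, and Sptssb from -0.05299 to 0.02837. The pairs ranged from 0.7294 to 1.144 (Sptlc3 over Sptlc1), 1.095 to 1.432 (Sptlc3 over Sptlc2), 1.117 to 1.484 (Sptlc3 over Kdsr), 0.9341 to 1.621 (Sptlc3 over Ormdl1), 0.2801 to 0.4419 (Sptlc1 over Sptlc2), 0.2797 to 0.4201 (Sptlc1 over Kdsr), -0.07176 to 0.05167 (Sptlc2 over Kdsr), -0.355 to 0.189 (Sptlc2 over Ormdl1) and -0.3485 to 0.1373 (Kdsr over Ormdl1). Apart from the fewer arrays, the cause of these shifts was not tested. No paired analysis was possible because the groups share no sample numbers. Signal over background limits Sptlc3 1446310_at, Ormdl1 and Sptssb.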
